A study of Rattus norvegicus with 47 samples.

Results

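The 10 genes described here make or sense leukotrienes, prostaglandins and related lipids: Pla2g4a, Alox5, Alox5ap, Lta4h, Ltb4r, Alox15, Ptgs1, Ptgs2, Ptger2 and Ptger4. Each was found by its symbol in the annotation of the authors' expression table. Where a symbol had more than 1 probe set, the one with the highest mean signal over the 6 time points was taken. All 10 were on the table, which holds 27596 probe sets, 21406 of them with a symbol. Blood was drawn from 8 male spontaneously hypertensive rats (SHR), 16 weeks old, at 0, 1, 2, 3, 6 and 24 h relative to thread occlusion of the middle cerebral artery (MCA). The 0 h sample preceded anaesthesia and is the reference for every change, so the changes at different times share it. RNA of the heparinised blood cell pellet was hybridised to RaGene arrays (Affymetrix), 8 per time point but 7 for 6 h. All rats had isoflurane anaesthesia and surgery, with the thread withdrawn under renewed anaesthesia between the 1 h and 2 h draws. There was no sham group, so stroke, surgery and anaesthesia cannot be told apart. Up to 6 h the tail vein was used, and at 24 h the heart, after anaesthetic overdose, so time and site of collection cannot be told apart there.

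Both families of mediators start from arachidonic acid, which phospholipase A2 releases from membranes. The 5-lipoxygenase made from Alox5, helped by the membrane protein made from Alox5ap (FLAP), turns it into leukotriene A4, and the hydrolase made from Lta4h turns this into leukotriene B4, a strong attractant of neutrophils. The cyclooxygenases made from Ptgs1 and Ptgs2 turn arachidonic acid into prostaglandin H2, from which the synthases of each cell type make prostaglandin E2, prostaglandin D2, prostacyclin or thromboxane A2. In blood, 5-lipoxygenase and FLAP are typical of neutrophils and monocytes, and cyclooxygenase-1 of platelets.

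The 3 promoter windows below are shown because the genes behind them stand for the different time courses in the data: Ptgs2 and Ptgs1 are the inducible and the constitutive cyclooxygenase, and Alox5 had the largest change at 2 h. They are RefSeq sequences of build GRCr8, from 250 bases before to 50 after the annotated start, written 5′ to 3′ on the strand of the gene, with capitals for matches to any of 6 short motifs on either strand.
Ptgs2: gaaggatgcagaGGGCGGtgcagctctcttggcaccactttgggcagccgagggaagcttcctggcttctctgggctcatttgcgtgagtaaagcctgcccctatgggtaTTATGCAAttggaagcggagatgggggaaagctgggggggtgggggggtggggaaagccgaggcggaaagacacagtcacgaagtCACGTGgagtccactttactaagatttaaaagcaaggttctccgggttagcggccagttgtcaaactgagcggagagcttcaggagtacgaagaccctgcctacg
Ptgs1: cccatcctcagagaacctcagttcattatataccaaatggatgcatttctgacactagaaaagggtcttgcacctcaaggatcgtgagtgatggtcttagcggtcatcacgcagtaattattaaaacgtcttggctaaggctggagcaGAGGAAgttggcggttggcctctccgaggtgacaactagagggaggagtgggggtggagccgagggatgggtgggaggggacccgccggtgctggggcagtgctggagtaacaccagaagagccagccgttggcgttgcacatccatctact
Alox5: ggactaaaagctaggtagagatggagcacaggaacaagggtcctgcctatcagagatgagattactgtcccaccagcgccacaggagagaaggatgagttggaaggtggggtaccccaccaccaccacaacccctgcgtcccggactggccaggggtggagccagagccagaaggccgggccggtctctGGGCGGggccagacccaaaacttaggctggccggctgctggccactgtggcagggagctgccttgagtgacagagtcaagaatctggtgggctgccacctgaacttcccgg
The Ptgs2 window lies at chr13:64713813-64714112 (plus strand), the Ptgs1 window at chr3:39981169-39981468 (plus strand) and the Alox5 window at chr4:151251077-151251376 (minus strand).

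In the Ptgs2 window the capitals mark an Sp1 box (GGGCGG) starting 238 bases before the start, a match to the C/EBP pattern TTNNGCAA at 140 bases and an E-box (CACGTG) at 55 bases. The Ptgs1 window held none of these and had 1 match to GAGGAA, a core of PU.1 and ETS sites, at 102 bases. The Alox5 window held an Sp1 box at 61 bases. The other motifs searched were TATAAA and the cAMP response half-site TGACG, neither of which was in these 3 windows in these letters. Windows were found for 8 of the 10 genes, all but Alox5ap and Alox15. Of these 8, 3 held GGGCGG, 4 held GAGGAA, 1 each held CACGTG, TTNNGCAA and TATAAA, and 0 held TGACG. Over all 33469 rat promoter windows of that length the shares were 33.1% for GGGCGG, 27.6% for GAGGAA, 6.42% for CACGTG, 10.6% for TTNNGCAA, 14.2% for TATAAA and 21.2% for TGACG. No matches overlapped in the 3 windows shown. A match describes the sequence and does not show that a factor binds there.

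In the expression data, values are the authors' mean log2 signals per time point with the authors' SD over arrays. A change is a difference of 2 such means, so that 1 on the log2 scale is a doubling. A change was called at an adjusted p below 0.05 in limma's moderated test, rebuilt from these means, SDs and array numbers and adjusted by Benjamini-Hochberg over all 27596 probe sets. Single rats were not analysed here, and the model takes the samples of a rat as independent.

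Of the 10 genes, 9 passed the F-test over the 6 time points, Ptger4 being the exception, while 55.5% of all probe sets passed it. At 1 h 7 genes were higher than at 0 h and 1 was lower, against 21.7% and 15.4% of all probe sets. At 2 h it was 6 higher and 1 lower, against 21.7% and 18.6%. At 3 h it was 7 higher and 1 lower, against 27.3% and 19.2%. At 6 h it was 6 higher and 1 lower, against 22.5% and 19.3%. At 24 h 5 genes were higher and 0 lower, against 17.4% and 13.9%. Of all called probe sets 58.6%, 53.9%, 58.7%, 53.8% and 55.6% were higher at 1, 2, 3, 6 and 24 h, which became 40.0%, 44.2%, 47.2%, 44.6% and 37.3% when each time point was centred on its median. Of the 10 genes 7, 6, 7, 6 and 4 were then higher. The median change of the 10 genes was 0.47, 0.64, 0.68, 0.89 and 0.26 at 1, 2, 3, 6 and 24 h, while that of all probe sets lay between 0.04 and 0.07. A called rise of at least a doubling was seen in 2 of the 10 genes at 2 h (Alox5 and Alox5ap) and in 3 at 6 h (these and Lta4h), against 1.25% and 1.45% of all probe sets. With quantile normalization of the means, 5 genes reached a doubling at 6 h. The genes that fell, Pla2g4a at 1 and 2 h and Ptger4 at 3 and 6 h, lost these calls with that normalization.

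**Figure D1:**
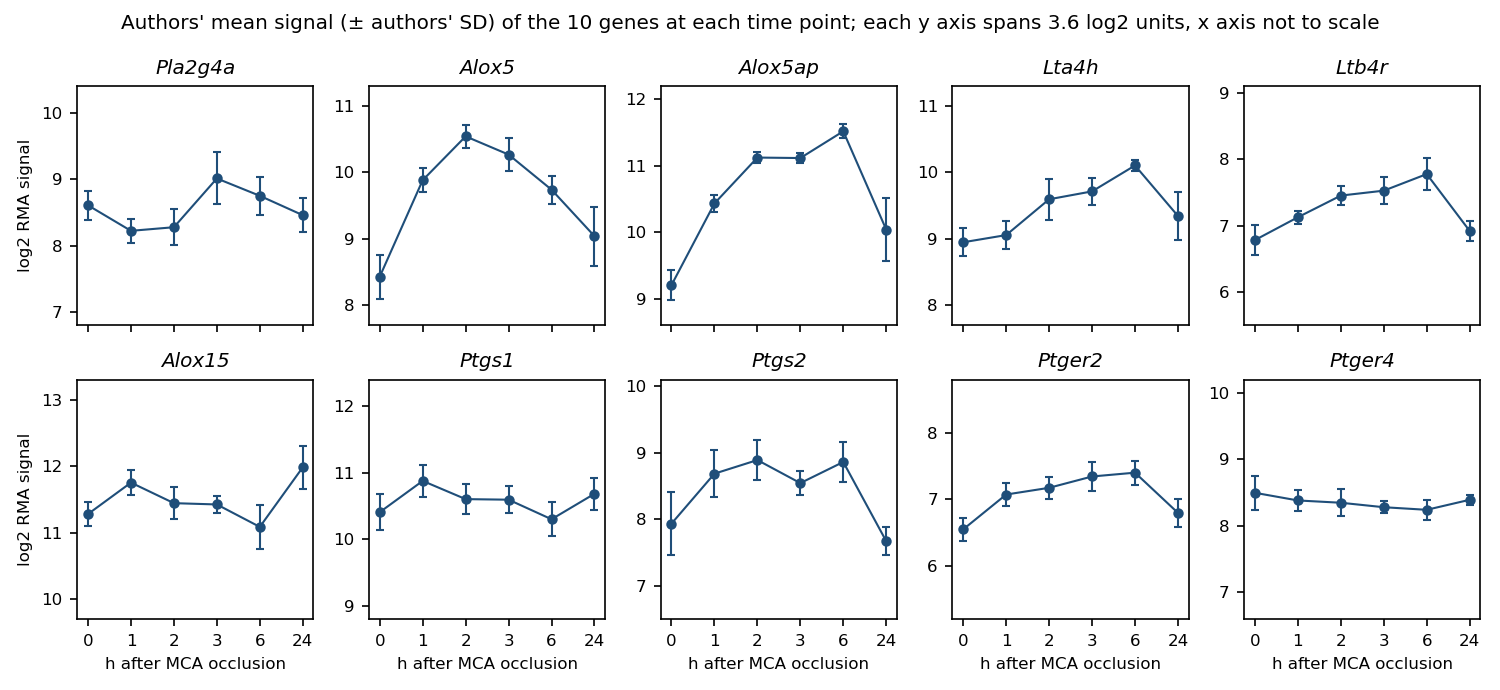
Authors' mean log2 signal of each of the 10 genes (y axis, a span of 3.6 log2 units in every panel) at 0, 1, 2, 3, 6 and 24 h post MCA occlusion (x axis, not to scale), with bars for the authors' SD over 8 arrays (7 at 6 h). Alox5 was highest at 2 h, Alox5ap and Lta4h at 6 h, Alox15 at 24 h, and Ptger4 moved least.

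The first step, release of arachidonic acid, is represented by Pla2g4a, the cytosolic phospholipase A2. Its probe set 10768376 covers chr13:72027795-72172613 (minus strand) of build rn5, the build of all probe set positions given here. Its mean was 8.61 ± 0.22 before occlusion and 8.22 ± 0.18, 8.28 ± 0.27, 9.01 ± 0.39, 8.75 ± 0.29 and 8.46 ± 0.25 at 1, 2, 3, 6 and 24 h (authors' SD, n = 8 arrays, 7 at 6 h, as for all values that follow). The gene therefore lay below its starting level at 1 and 2 h and above it at 3 h. It fell by 0.38 on the log2 scale at 1 h (adjusted p = 0.019) and by 0.33 at 2 h (adjusted p = 0.0406), and was 0.40 higher than at 0 h at 3 h (adjusted p = 0.0106). The step from 2 h to 3 h was a rise of 0.73 (95% interval 0.47 to 1.00, adjusted p = 2.33e-04). It was the only called change among the 10 genes over that hour, when 1.9% of all probe sets rose and 1.62% fell. With the SDs of the compared time points alone in place of a common spread, the 3 h change had an adjusted p of 0.0633 and the step one of 0.0544. In the test without moderation, the 2 h change had an adjusted p of 0.0516.

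Alox5 and Alox5ap, which act together, had the largest changes. Alox5 (probe set 10864848, chr4:214346150-214393316, minus strand) had a mean of 8.43 ± 0.33 before occlusion and of 9.88 ± 0.18, 10.54 ± 0.17, 10.27 ± 0.25, 9.74 ± 0.21 and 9.04 ± 0.44 at 1, 2, 3, 6 and 24 h. It rose early, was highest at 2 h and declined from there. Its 2 h level was 4.32-fold that at 0 h, a log2 change of 2.11 (95% interval 1.84 to 2.38, adjusted p = 1.11e-17), which was 4.75 times its highest authors' SD. The changes at 1, 3 and 6 h were 1.45, 1.84 and 1.31. In the order of its levels, 2 h, 3 h, 1 h, 6 h, 24 h and 0 h, no neighbours among the first 4 passed the test, with adjusted p of 0.311, 0.0584 and 0.551. It fell by 0.70 on the log2 scale from 6 h to 24 h (adjusted p = 1.58e-04), and 28.9% of the 2 h change was left at 24 h, still above 0 h by 0.61 (adjusted p = 5.69e-04).

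Alox5ap (probe set 10759999, chr12:8950727-8974708, minus strand) had a mean of 9.21 ± 0.23 before occlusion and of 10.43 ± 0.13, 11.12 ± 0.08, 11.12 ± 0.08, 11.52 ± 0.10 and 10.04 ± 0.47 at 1, 2, 3, 6 and 24 h. Unlike Alox5, it was highest at 6 h, at 4.97-fold its level at 0 h, a log2 change of 2.31 (95% interval 2.08 to 2.54, adjusted p = 2.17e-21). The step from 3 h to 6 h was a rise of 0.40 in Alox5ap (adjusted p = 0.0303) and a fall in Alox5, with a difference of -0.53 (adjusted p = 0.0174). These were the only called changes among the 10 genes over that step, when 2.34% of all probe sets rose and 2.44% fell. With the SDs of these time points alone the fall of Alox5 had an adjusted p of 0.0538. Alox5ap fell by 1.48 on the log2 scale from 6 h to 24 h (adjusted p = 3.94e-14), and 36.1% of the 6 h change was left. The authors' SDs of Alox5 and Alox5ap were highest at 24 h.

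Lta4h, the hydrolase that forms leukotriene B4, was raised from 2 h on. Its probe set 10894878 (chr7:34353506-34385291, plus strand) had a mean of 8.95 ± 0.21 before occlusion and of 9.06 ± 0.21, 9.60 ± 0.31, 9.72 ± 0.20, 10.10 ± 0.09 and 9.35 ± 0.36 at 1, 2, 3, 6 and 24 h. The 1 h change was 0.11 (95% interval -0.13 to 0.35, adjusted p = 0.494). The step from 1 h to 2 h was a rise of 0.54 (adjusted p = 0.00179), and the 6 h level was 2.23-fold that at 0 h (log2 change 1.15, 95% interval 0.91 to 1.40, adjusted p = 1e-10). The step from 3 h to 6 h, 0.39, had an adjusted p of 0.0551, and one below the threshold in 4 of the alternative settings. At 24 h Lta4h was still 0.40 above 0 h (adjusted p = 0.00998), though not with the SDs of these time points alone (adjusted p = 0.0684).

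Ltb4r, the high-affinity leukotriene B4 receptor, was likewise highest at 6 h and back near its starting level at 24 h. Its probe set 10780505 (chr15:38340628-38341693, plus strand) had a mean of 6.78 ± 0.23 before occlusion and of 7.13 ± 0.10, 7.45 ± 0.14, 7.53 ± 0.20, 7.78 ± 0.24 and 6.92 ± 0.15 at 1, 2, 3, 6 and 24 h. It rose by 0.34 at 1 h (adjusted p = 0.00242) and by 0.99 at 6 h (95% interval 0.81 to 1.18, adjusted p = 2.12e-12). The step from 3 h to 6 h, 0.25, was not called (adjusted p = 0.117). At 24 h the difference from 0 h was 0.14 (95% interval -0.04 to 0.32, adjusted p = 0.248).

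Over the step from 1 h to 2 h, Alox5, Alox5ap, Lta4h and Ltb4r were the 4 of the 10 genes that rose and 0 fell, while 4.66% of all probe sets rose and 4.11% fell. The rises were 0.66, 0.69, 0.54 and 0.33.

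Alox15, the 12/15-lipoxygenase, which adds oxygen at another carbon of the fatty acid, had the opposite order at 6 and 24 h. Its probe set 10744425 (chr10:56704494-56713199, minus strand) had a mean of 11.28 ± 0.17 before occlusion and of 11.75 ± 0.19, 11.44 ± 0.24, 11.42 ± 0.13, 11.09 ± 0.33 and 11.98 ± 0.32 at 1, 2, 3, 6 and 24 h. It was raised at 1 h by 0.47 (adjusted p = 0.00124) and at 24 h by 0.70 (95% interval 0.47 to 0.93, adjusted p = 8.06e-06), and at neither 2, 3 nor 6 h. From 6 h to 24 h it rose by 0.90 (adjusted p = 7.9e-08).

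**Figure D2:**
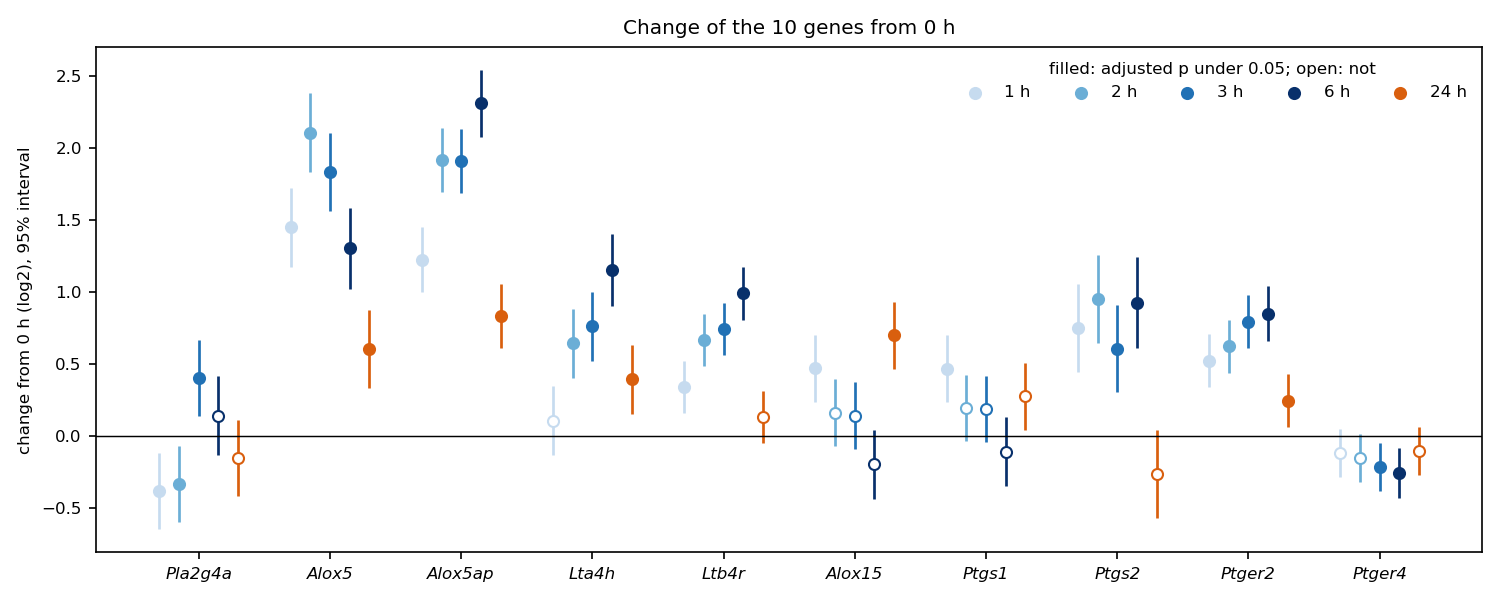
Change of the 10 genes from 0 h (y axis, log2) at 1, 2, 3, 6 and 24 h (colours), with the 95% interval of the moderated test, and filled points for an adjusted p below 0.05. The 24 h points of Alox5, Alox5ap, Lta4h, Ltb4r, Ptgs2 and Ptger2 lie below those at 6 h, while those of Alox15 and Ptgs1 lie above.

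Of the cyclooxygenases, Ptgs2 was raised from 1 h to 6 h, while the change of Ptgs1 was called at 1 h only. Ptgs2 (probe set 10764551, chr13:72316248-72324483, plus strand) had a mean of 7.94 ± 0.47 before occlusion and of 8.69 ± 0.35, 8.89 ± 0.30, 8.54 ± 0.19, 8.86 ± 0.31 and 7.67 ± 0.21 at 1, 2, 3, 6 and 24 h. Its levels from 1 h to 6 h were all above those at 0 and 24 h, with changes of 0.75, 0.96, 0.61 and 0.93, of which that at 2 h had a 95% interval of 0.65 to 1.26 (adjusted p = 1.23e-06). Among the levels at 2, 6, 1 and 3 h no neighbours in this order passed the test, with adjusted p of 0.943, 0.507 and 0.649. From 6 h to 24 h it fell by 1.19 on the log2 scale (adjusted p = 6.39e-08). The difference from 0 h at 24 h was -0.26 (95% interval -0.57 to 0.04, adjusted p = 0.184).

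Ptgs1 (probe set 10835817, chr3:20869935-20891512, plus strand) had a mean of 10.41 ± 0.27 before occlusion and of 10.88 ± 0.24, 10.60 ± 0.22, 10.60 ± 0.20, 10.30 ± 0.25 and 10.68 ± 0.24 at 1, 2, 3, 6 and 24 h. It was raised at 1 h by 0.47 (95% interval 0.24 to 0.70, adjusted p = 0.00123). The changes at 2, 3 and 6 h were 0.20, 0.19 and -0.11, none past the threshold. The change at 24 h, 0.28, had an adjusted p of 0.0596, and of 0.0215 with quantile normalization of the means. From 6 h to 24 h Ptgs1 rose by 0.38 (adjusted p = 0.0163), which had an adjusted p of 0.0723 with the SDs of these time points alone.

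Of the receptors for prostaglandin E2 that couple to cAMP, Ptger2 rose at every later time point and Ptger4 had small falls at 3 and 6 h. Ptger2, the gene of the EP2 receptor (probe set 10779553, chr15:23303712-23315207, plus strand), had a mean of 6.55 ± 0.17 before occlusion and of 7.07 ± 0.18, 7.17 ± 0.17, 7.34 ± 0.21, 7.40 ± 0.18 and 6.80 ± 0.21 at 1, 2, 3, 6 and 24 h. It rose by 0.52 at 1 h (adjusted p = 1.46e-05) and by 0.85 at 6 h (95% interval 0.66 to 1.04, adjusted p = 2.56e-10), and no neighbouring time points in between passed the test. The 24 h change of 0.25 (adjusted p = 0.0337) was not called after centring (adjusted p = 0.0879), after quantile normalization (0.101) or with the SDs of these time points alone (0.0683). A second probe set of Ptger2, 10779584, held identical values.

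Ptger4, the gene of the EP4 receptor (probe set 10821689, chr2:73975576-73986821, minus strand), had a mean of 8.50 ± 0.26 before occlusion and of 8.38 ± 0.16, 8.35 ± 0.20, 8.28 ± 0.09, 8.24 ± 0.15 and 8.39 ± 0.07 at 1, 2, 3, 6 and 24 h. It fell by 0.22 on the log2 scale at 3 h (adjusted p = 0.0292) and by 0.26 at 6 h (95% interval -0.43 to -0.08, adjusted p = 0.0144). The adjusted p of its F-test was 0.0986. With the SDs of the time points alone the falls had adjusted p of 0.107 and 0.0849, and with quantile normalization 0.342 and 0.222.

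From 6 h to 24 h, 6 of the 10 genes fell (Alox5, Alox5ap, Lta4h, Ltb4r, Ptgs2 and Ptger2) and 2 rose (Alox15 and Ptgs1), against 8.68% and 10.2% of all probe sets. The differences ranged from -1.48 for Alox5ap to 0.90 for Alox15. The 24 h sample was the one drawn from the heart.

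The rest of the pathway was read from a list of 74 genes in 6 roles, of which 71 were on the table, the 10 genes included. In this list 45 of 71 passed the F-test, and 36 of 61 without the 10 genes, against 55.5% of all probe sets. Of the 61 others, 14, 16, 17, 16 and 13 were higher than before occlusion at 1, 2, 3, 6 and 24 h, and 6, 7, 10, 9 and 4 were lower. Of all probe sets 21.7%, 21.7%, 27.3%, 22.5% and 17.4% were higher and 15.4%, 18.6%, 19.2%, 19.3% and 13.9% lower, so that the counts of higher genes were near the background. Over all 71, 21 were higher at 1 h, but 12 after centring and 13 after quantile normalization. The median change of the 61 was between 0.07 and 0.09 at each time point, near that of all probe sets. Called rises of at least a doubling were found in 2, 3, 2, 2 and 0 of the 61 at these times, a larger share at 1, 2, 3 and 6 h than the 0.428%, 1.25%, 1.2% and 1.45% of all probe sets (0.196% at 24 h). These counts are small and the difference was not tested.

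The counts by role that follow are over 1, 2, 3, 6 and 24 h in this order, include the 10 genes and are to be read against the same shares of all probe sets. Among the 18 genes of arachidonate release, 3, 5, 6, 5 and 5 were higher and 2, 3, 3, 2 and 2 lower. Pla2g2d, a secreted phospholipase A2, was lower at every later time point, by most at 3 h, when it fell by 0.69 (adjusted p = 2.2e-06). Of the 15 measured genes of lipoxygenases and leukotriene synthesis, 5, 5, 5, 3 and 6 were higher and 1, 1, 1, 1 and 0 lower. Mgst2, a microsomal glutathione transferase that can make leukotriene C4, went from 8.20 ± 0.36 at 0 h to 9.53 ± 0.33 at 2 h, a change of 1.33 (95% interval 1.03 to 1.63, adjusted p = 3.27e-10), and to 8.42 ± 0.42 at 6 h. Ltc4s, the leukotriene C4 synthase of mast cells and eosinophils, did not pass the test at any time, and its largest difference was 0.13 at 1 h (adjusted p = 0.103). Alox12, the platelet 12-lipoxygenase, was raised by 0.28 at 1 h (adjusted p = 0.0352) and by 0.57 at 24 h (adjusted p = 6.57e-05). Its 1 h change was not called with the centred means (adjusted p = 0.094) or the quantile normalized ones (0.0644).

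Of the 5 leukotriene receptors, 2, 1, 2, 3 and 0 were higher and 1, 0, 1, 0 and 0 lower. Cysltr1, the receptor for leukotriene D4, was at 6.31 ± 0.28 at 0 h, fell by 0.57 on the log2 scale at 1 h (adjusted p = 0.0174) and was 0.83 above 0 h at 6 h (95% interval 0.42 to 1.23, adjusted p = 8.06e-04). Ltb4r2, the low-affinity leukotriene B4 receptor, was 0.30 higher at 3 h (adjusted p = 0.00285).

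Of the 11 measured genes of prostanoid synthesis, 5, 5, 4, 3 and 1 were higher and 1, 2, 2, 2 and 1 lower. Tbxas1, the thromboxane synthase, rose from 7.71 ± 0.21 at 0 h to 8.75 ± 0.21 at 6 h, a change of 1.04 (95% interval 0.81 to 1.26, adjusted p = 1.43e-10), and was at 7.86 ± 0.27 at 24 h. Ptges, the inducible prostaglandin E synthase, was 0.21 higher at 2 h (adjusted p = 0.00391). Ptges3, the cochaperone p23, also named cytosolic prostaglandin E synthase, was lower at every later time point and fell by 0.84 at 3 h (adjusted p = 5.54e-07). Hpgds, the prostaglandin D synthase of mast cells and some T cells, fell by 0.35 at 6 h (adjusted p = 0.00447). Of the 9 prostanoid receptors, 2, 2, 3, 3 and 2 were higher and 0, 0, 1, 1 and 0 lower, and Ptger3 was 0.22 higher at 24 h (adjusted p = 0.00236).

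Of the 13 genes of inactivation and transport, 4, 4, 4, 5 and 4 were higher and 2, 2, 3, 4 and 1 lower. Ptgr1, which inactivates leukotriene B4 and 15-keto-prostaglandins, went from 6.81 ± 0.29 at 0 h to 8.45 ± 0.24 at 2 h, a change of 1.64 (95% interval 1.33 to 1.95, adjusted p = 3.63e-12). Cyp4f18, whose mouse counterpart hydroxylates leukotriene B4 in neutrophils, rose by 1.45 at 2 h (adjusted p = 2.01e-14) and was still 0.83 higher at 24 h (adjusted p = 4.43e-07). Ptgr2, which reduces 15-keto-prostaglandin E2, fell by 0.94 at 2 h (adjusted p = 4.28e-07), and Cyp4f5, another cytochrome of that family, fell by 0.52 at 6 h (adjusted p = 7.37e-06). Hpgd, the 15-hydroxyprostaglandin dehydrogenase, did not pass the test at any time, and its largest difference was 0.13 at 6 h (adjusted p = 0.172).

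**Figure D3:**
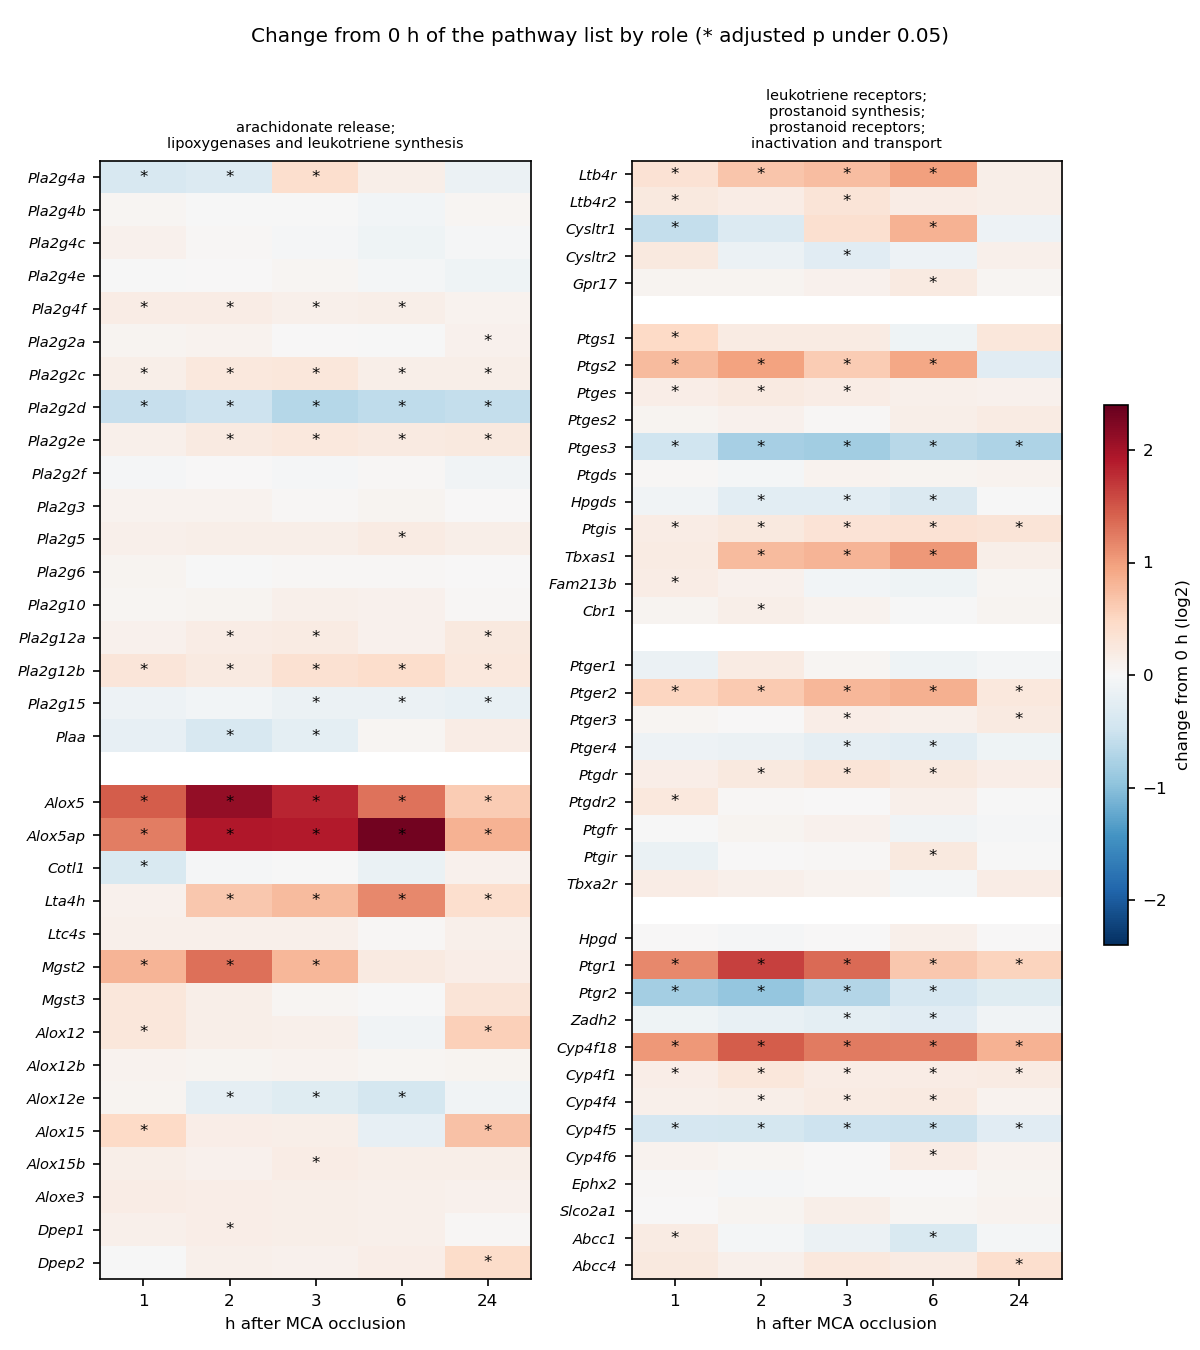
Change from 0 h (colour, log2) of the 71 measured genes of the pathway list (rows, in blocks by role in the order of each panel's title) at 1, 2, 3, 6 and 24 h (columns), with a star for an adjusted p below 0.05. The strongest rises are those of Alox5, Alox5ap, Ptgr1, Cyp4f18, Mgst2 and Lta4h, and the strongest falls those of Ptgr2 and Ptges3.

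Markers of blood cell types also changed over these times, some lists upwards and others downwards. In RNA of whole blood a change in the number of cells of a type and a change in RNA per cell cannot be told apart. Of the 11 neutrophil markers 11, 11, 10, 10 and 8 were higher at 1, 2, 3, 6 and 24 h and 0, 0, 0, 0 and 1 lower, with a median change of 0.96, 1.48, 1.31, 1.59 and 0.71. The marker that was lower at 24 h, named after its values were seen, was Ngp (-0.90, adjusted p = 0.00259). The mean signal of the list ranged from 9.78 at 0 h to 11.48 at 2 h. The changes of Alox5 and Alox5ap lay within the range of the single markers, which at 6 h was 0.03 to 2.81. The low end at 3 and 6 h was Ngp alone (0.44 and 0.03, neither called), and the next marker, Mmp8, differed from 0 h by 0.98 and 0.99. Lta4h and Ltb4r at 3 h (0.77 and 0.74) and Ltb4r at 6 h (0.99) were thus within the range of all 11 markers through Ngp alone. They were at or below the other 10 markers, while Lta4h at 6 h (1.15) was within the range of these 10. At 1 and 2 h the lowest marker changes, 0.80 and 1.07, were above those of Lta4h, Ltb4r, Ptger2 and Ptgs2. The 8 monocyte markers had a median change between -0.50 and -0.18, with 3 higher and 4 lower at 6 h. The 10 B cell markers had a median change of -2.04 at 2 h, when all 10 were lower, and the 10 T cell markers one of -1.07 at 6 h, when all 10 were lower. The mean signal ranged from 7.93 to 9.71 in the B cell list and from 8.60 to 9.63 in the T cell list. The 8 NK cell markers had a median change of -0.78 at 6 h and the 10 markers of eosinophils and basophils one of -0.37. The part of these shifts in the changes of the pathway genes was not tested.

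Alox15, Alox12 and Ptgs1 were set beside the erythroid and platelet lists, and the likeness of the profiles was not tested. The 8 erythroid markers had a median change of 0.31 at 1 h, -0.12 at 6 h and 0.51 at 24 h, with 5, 0 and 6 of them higher and 2 lower at 6 h. The 7 measured platelet markers had a median change of 0.32, 0.07 and 0.30 at these times, with 4, 0 and 5 of them higher. From 6 h to 24 h a rise was called in 8 of 8 erythroid and 1 of 7 platelet markers, against 10.2% of all probe sets. All markers of both lists were higher at 24 h, by 0.11 to 1.78 in the erythroid and 0.09 to 0.42 in the platelet list. The F-test was passed by 6 of the 8 erythroid markers, not by Alas2 and Ahsp, and by 5 of the 7 platelet markers, not by Pf4 and Gp9. The erythroid markers with the highest signal, Alas2 and Slc4a1, differed from 0 h by 0.01 and 0.58 at 24 h, and the platelet markers Pf4 and Ppbp by 0.04 and 0.30. The mean signal of the erythroid list ranged from 10.47 at 6 h to 11.18 at 24 h, and that of the platelet list from 10.97 at 0 h to 11.27 at 1 h. The part of these cells in the changes of Alox15, Alox12 and Ptgs1 was not tested.

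**Figure D4:**
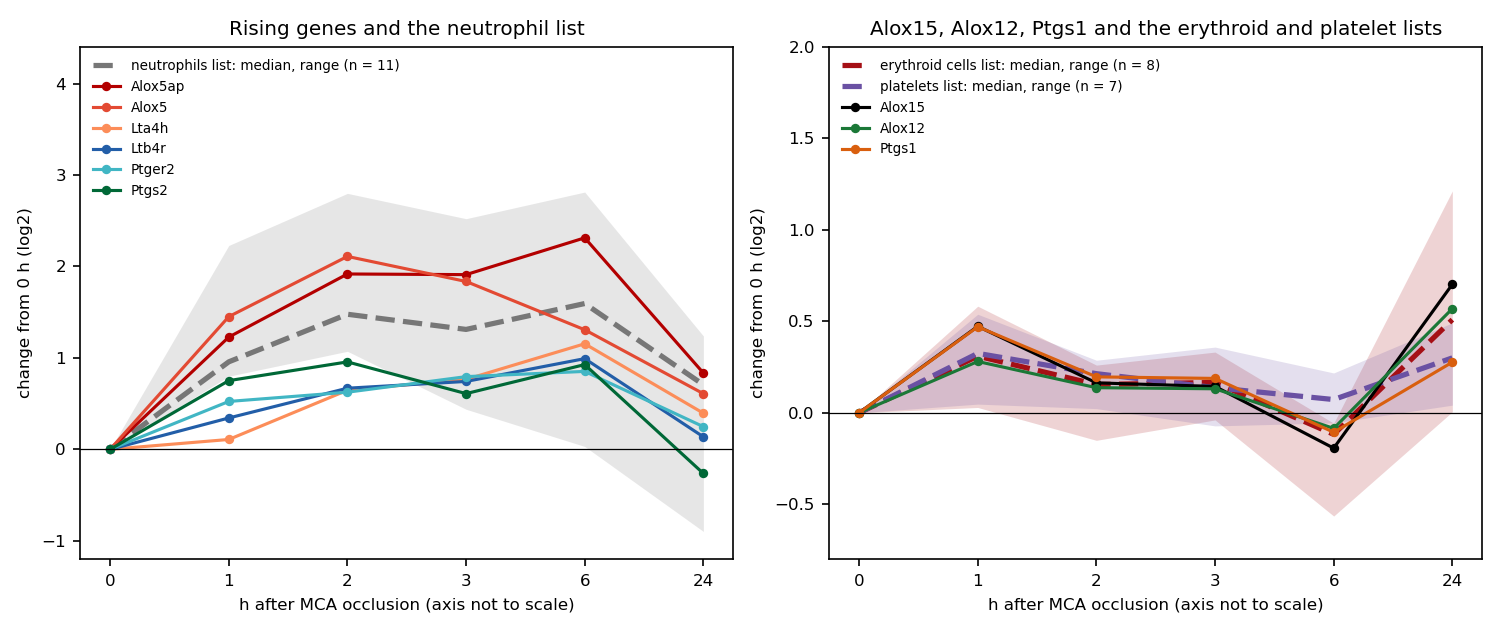
Change from 0 h (y axis, log2) at each time point (x axis, not to scale) of genes of the pathway (lines with points) beside the median (dashed) and the range (band) of marker lists: neutrophils with 11 genes on the left, erythroid cells with 8 and platelets with 7 on the right. Alox5 and Alox5ap lie above the neutrophil median at 1, 2 and 3 h. Alox15, Alox12 and both the erythroid and the platelet median are higher at 24 h than at 6 h.

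Probe sets of other genes with the most similar time course were ranked by the root mean square (RMS) difference over the 5 changes from 0 h, which is a description over 6 time points. For Alox5ap these were Gca (RMS 0.0951), LOC102557597 (0.107) and Tpd52 (0.110). For Alox5 they were LOC24906 (0.136), Hk3 (0.163) and Bcr (0.185), and for Lta4h they were Taldo1 (0.0995), Ifngr1 (0.100) and Lbr (0.106). Gca had changes of 1.16, 1.81, 1.77, 2.31 and 0.94 at 1, 2, 3, 6 and 24 h, beside 1.23, 1.92, 1.91, 2.31 and 0.83 for Alox5ap.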

How the data were processed

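Blood RNA of 8 rats was measured on 47 arrays at 6 time points. The authors summarized the arrays by RMA and deposited log2 signals, with the mean and SD of each of 27596 probe sets per time point and an rn5 annotation, and these means and SDs were used here. Their table also holds fold changes, p-values and FDRs of their own comparisons, which were not used, and 47 columns of single arrays, named by number alone, which were not used because no name matches the label of a sample and columns were not assigned by their order. The 1-way limma model over the 6 time points (limma 3.58.1, R 4.3.3) was therefore rebuilt from the means, SDs and array numbers, with 41 residual and 5.71 prior degrees of freedom. P-values were adjusted by Benjamini-Hochberg over all probe sets within each contrast. In a test on simulated data for the change at 2 h against 0 h, 200 of 27596 probe sets were changed at 2 h. The rebuilt model gave limma's own p-values within 1.44e-13. It recovered 100 of 100 changes of 1 and 81 of 100 of 0.5, and 5.24% of its calls were false. In the data 6002 probe sets were called higher at 2 h and 5137 lower. The simulated shares are therefore not the power or error rate of the calls reported here. The number of arrays limits the precision, and how far single probe sets stood above background could not be judged. RNA was worked up in randomized batches that could not be analysed here.

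Alternatives were centring and quantile normalization of the means, no moderation, an intensity trend with a robust prior, leaving out the dimmest 25% of probe sets, the SDs of the compared time points alone, leaving out the 24 h samples and, for the pathway list, the dimmest probe set per symbol. The genes and lists were chosen with earlier results of these data known. From the pathway list the text names genes whose largest change from 0 h was called and at least 0.5 in size, and always Ltc4s, Tbxas1, Ptges, Hpgds, Hpgd, Cysltr1, Ltb4r2 and Ptger3. From each marker list the rule was to name at most 2 genes, those with the highest signal. Outside this rule Ngp was named for its changes, and Ahsp and Gp9 for their F-tests. For the 3 genes with the largest change, the 3 most similar probe sets are named. Of 74 marker genes 72 were on the table. Promoter sequences are RefSeq's (GRCr8).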

Additional observations from a re-analysis of the deposited data

How the results depend on the processing

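No paired analysis was possible because the array columns are named by number alone, with neither rat nor time, and columns were matched to samples only by name. The fit with the rat as a replicate block was therefore not run, and no single array was left out. Of 610 values of the 10 genes under the alternatives, 589 kept direction and call, 15 lost the call, 5 gained it and 1 changed sign. That was the step of Ptgs1 from 2 h to 3 h, 0.0017 with quantile normalization. Of 534 values of the 16 other pathway genes named, 505 kept direction and call and 2 gained the call. Another 17 lost it, 5 after centring, 7 after quantile normalization and 5 with the SDs of the compared time points alone, in Alox12, Ltb4r2, Ptges, Ptger3, Hpgds, Ptgr1, Ptgr2 and Cyp4f5, at 1 or 2 time points each. The other 10 changed sign, all of them differences that were not called: Ltc4s at 6 h (-0.0048 after centring), Ptger3 at 1 h (-0.019 after quantile normalization) and at 2 h (-0.018 after centring, -0.055 after quantile normalization), and Hpgd, after centring and quantile normalization in turn, at 1 h (-0.031, -0.014), 3 h (-0.026, -0.070) and 24 h (-0.026, -0.037). The median shift over all probe sets by these scalings was at most 0.0489 and 0.0429. Single genes could move further, such as Ptger4 at 6 h, from -0.26 to -0.14 with quantile normalization.

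The counts over the 10 genes moved as follows. With quantile normalization 0 genes were lower at 1, 2, 3 and 6 h, where it was 1, and 5 in place of 3 at least doubled at 6 h. Without moderation 0 were lower at 2 h. With the SDs of the compared time points alone 0 were lower at 3 h and 6 h, 3 in place of 5 were higher at 24 h, 0 rose from 2 h to 3 h, 2 rose and 0 fell from 3 h to 6 h, and 1 in place of 2 rose from 6 h to 24 h. From 3 h to 6 h 2 genes rose after centring, without the lowest 25% of probe sets and without the 24 h samples. In the pathway list, 12 genes were higher at 1 h after centring and 13 after quantile normalization, in place of 21, and 6 were lower at 3 h and at 6 h with the SDs alone, in place of 11 and 10. Over all probe sets, centring gave 3465 higher at 1 h and 2749 at 24 h, in place of 5997 and 4794. The SDs alone gave 201 higher and 186 lower from 2 h to 3 h, 198 and 128 from 3 h to 6 h, and 1636 higher from 6 h to 24 h, in place of 525, 448, 645, 674 and 2817. The F-test passed 9 of the 10 genes in every alternative that could be fitted. The cause of these shifts was not tested.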
